A study of Mus musculus with 753 samples.

Results

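The Id genes and members of the bone morphogenetic protein (BMP) pathway were followed in single epidermal cells of healing mouse skin. The 8 genes were chosen by name from the 19611 genes with values in both sequencing batches: the targets Id1, Id2 and Id3, the secreted antagonist Sostdc1, the inhibitors Bambi, Smad6 and Smad7, and the receptor Bmpr1a. Cells came from 8 to 12-week-old male and female mice carrying Gata6EGFPCreERT2 and Rosa26-fl/STOP/fl-tdTomato, on a C57BL/6J or mixed background, and all mice received topical 4-hydroxytamoxifen. Cre is made from the Gata6 locus, which marks differentiated cells of the sebaceous duct and upper hair follicle, so tdTomato-positive (lin+) cells are Gata6-expressing cells or their progeny and tdTomato-negative (lin-) cells are all others that passed the CD45-, GFP- and Itga6 sort. Skin was taken unwounded (day 0) or at days 6, 9 and 11 after wounds of 6 mm. The 684 cells used, of 753 samples in the series, formed 14 sets, a set being the cells of 1 lineage, day and mouse set, and lin+ and lin- cells were sorted from the same 7 mouse sets. The labels name no replicates at day 6, so its cells were pooled as 1 set per lineage, and a replicate of days 9 and 11 was 1 mouse.

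BMP ligands bind paired type I and type II receptors, of which Bmpr1a is the main type I receptor of skin epithelium. The receptors phosphorylate Smad1, Smad5 and Smad9, which join Smad4 and switch on target genes. Id1, Id2 and Id3 are classical targets; the Id proteins lack a DNA-binding region and hold E proteins such as Tcf3 and Tcf12 away from DNA. Smad6 and Smad7 are inhibitory Smads that the pathway itself induces, Bambi is a membrane pseudoreceptor without a kinase, and Sostdc1 (ectodin, Wise) is secreted and binds BMPs and Wnt co-receptors. In hair follicles BMP signalling keeps bulge stem cells at rest, and in the interfollicular epidermis it accompanies differentiation.

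The stretches upstream of Id2 and Id3 are shown because these were the members with a lower mean in lin+ cells in every mouse set. The 250 bases before each RefSeq start (GRCm38.p6) were searched on both strands for GGCGCC, a BMP Smad motif found in 9.586% of 32851 such stretches, and for the Smad motif GTCT (AGAC on the other strand), found in 82.86% of them. Matches are in capitals.
Id2, chr12:25096093-25096342, minus strand, directly before exon 1 of the gene at chr12:25093799-25096092: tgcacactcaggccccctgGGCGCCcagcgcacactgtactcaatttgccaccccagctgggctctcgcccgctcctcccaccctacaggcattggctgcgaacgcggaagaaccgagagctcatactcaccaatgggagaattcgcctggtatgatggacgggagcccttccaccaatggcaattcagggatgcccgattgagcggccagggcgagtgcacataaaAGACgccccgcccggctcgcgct
Id3, chr4:136143572-136143821, plus strand, directly before exon 1 of the gene at chr4:136143822-136145392: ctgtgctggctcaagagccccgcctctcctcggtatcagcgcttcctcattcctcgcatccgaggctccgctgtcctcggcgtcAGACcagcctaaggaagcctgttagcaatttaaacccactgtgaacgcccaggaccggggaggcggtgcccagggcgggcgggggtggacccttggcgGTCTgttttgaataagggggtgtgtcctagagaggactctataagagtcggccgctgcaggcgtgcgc
Id2 held GGCGCC 231 bases and AGAC 23 bases before its start. Id3 held AGAC and GTCT, 166 and 68 bases before its start, and no GGCGCC in this window. Each stretch was 62.8% G and C. Such matches describe the sequence and do not show binding. RefSeq upstream entries were found for 4 of the 8 members, these genes, Smad6 and Bmpr1a. Of the other members, 2 described in detail here lie at chr2:152736251-152737410 (Id1) and chr12:36314169-36318452 (Sostdc1).

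Each cell's values were scaled to sum to 1000000, and a gene's level in a set is its average over those cells after the sets of a batch were scaled to each other. The first batch (222 cells, replicate 1 of days 0, 9 and 11) was used as read counts and the second (462 cells, day 6 and replicate 2) as RPKM, the units of the deposited joint matrix. Levels are therefore set side by side only within a batch. Genes are compared with each other only in the second, whose values are per length. Median depth ran from 1793646.5 to 5967310.5 reads and from 1776 to 3228 genes per cell of a set. Krt14, a basal keratin, was between 2584 and 30390 in every set. No pair of cells held identical values. Outer bulge (OB) cells made up 14.9 to 42.6% of lin- sets and 2.38 to 16.1% of lin+ sets. A group of 28 cells (22 lin-, 6 lin+) was low in keratins (Krt5, Krt14, Krt15, Krt17, Krt1 and Krt10 together under 100), and 5 lin- cells had 38690 to 60740 of Dct, a melanocyte enzyme. Summed melanocyte markers (3 of 4 measured, none at 0 in all sets) reached 2902 in lin- sets and 22.5 in lin+ sets, immune markers (6 of 8 measured) 126 and 241, and fibroblast markers (5 of 6 measured) 22.0 and 22.9. Endothelial markers (4 of 4 measured) reached 111.6 in lin- sets and 1.04 in lin+ sets, and Merkel cell markers (4 of 4 measured) 34.4 and 3.81.

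Reads of the Id genes were found in a minority of cells and at high levels where present. In the second batch a read was present in 27.7% of 462 cells for Id1, 43.1% for Id2 and 38.3% for Id3, with medians in those cells of 700.8, 540.8 and 999.3. Sostdc1 was read in 64.5% of cells, with a median of 1905. The inhibitors were rarer: Bambi was read in 6.06%, Smad7 in 8.66% and Smad6 in 1.95% of cells, and Bmpr1a in 30.1%. The order of mean levels per length was Sostdc1 (1676), Id3 (726.8), Id2 (690.7), Id1 (411.6), Bmpr1a (25.1), Bambi (7.28), Smad7 (6.66) and Smad6 (0.539). Over sets, Id2 and Id3 overlapped (271 to 1517 and 356 to 1001), and Bambi and Smad7 overlapped (0 to 26.2 and 0.00626 to 14.3). All 3 Id genes were read together in 60 of 462 cells (13.0%) of the second batch and 12 of 222 (5.41%) of the first, and none was read in 165 (35.7%) and 99 (44.6%). Across cells within a set, Id1 and Id3 had a Spearman correlation of 0.13 to 0.52 and above 0 in 14 of 14 sets, whereas Id1 and Sostdc1 had a median of 0.000364 (-0.31 to 0.18); cells of a set share depth and these are descriptions.

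Cells of different deposited identities differed in these genes. In the second batch the 97 OB cells, labelled as outer bulge of the hair follicle, had mean levels of 1169 for Id1, 2345 for Id2 and 1966 for Id3. The 231 IFE-B cells, labelled as basal layer of the interfollicular epidermis, had 235.3, 285.1 and 506.5. The bulge markers Cd34 and Postn were at 470.1 and 1582 in OB cells and at 17.2 and 126.2 in IFE-B cells. The melanocyte enzyme Dct was at 1681 in OB cells and 427.7 in IFE-B cells. The part of Dct-high cells in the Id means was not tested. In that batch Id2 was the most widespread of the Id genes in OB cells, with a read in 73 of 97 (75.3%, exact 95% interval 65.5 to 83.5), against 81 of 231 IFE-B cells (35.1%, 28.9 to 41.6). Id3 was at 0 in all 16 sebaceous gland (SG) cells of that batch, which allows a share of up to 18.75%, while Id2 was read in 9 of them. In the first batch Id3 was read in 12 of 24 OB cells and Id2 in 9, OB cells again had the higher Id2 mean (643.5 against 58.6 in 142 IFE-B cells), and Id1 and Id3 lay close together in the 2 identities (353.6 and 302.4 for Id1, 544.3 and 613.9 for Id3). Sostdc1 was high in IFE-B (1880), upper hair follicle uHF-I (2128) and OB cells (1647) of the second batch and low in uHF-III cells (186.7 in 22 cells). The identities were assigned by the authors from the same cells' expression, so these differences were not tested. An identity is a label and not a measured position, and 106 of the 231 IFE-B cells were lin+. In sections of unwounded skin the paper found lin+ cells only in the upper follicle and sebaceous duct, above the basal layer.

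**Figure D1:**
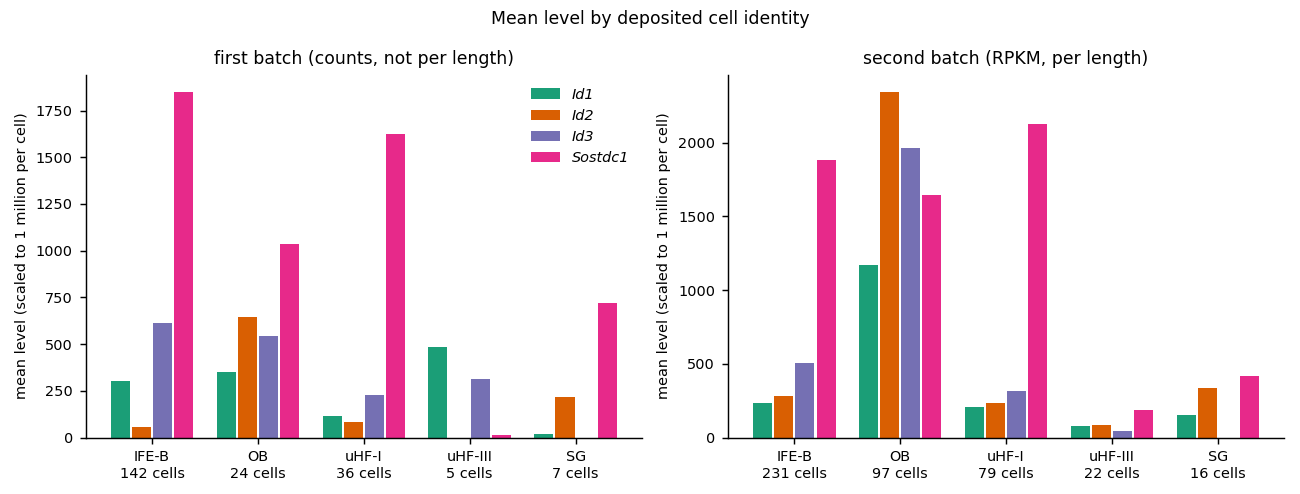
Mean level (each cell scaled to 1000000) of Id1, Id2, Id3 and Sostdc1 by deposited cell identity, with the number of cells under each; the first batch is not per length, so its bars are comparable only within a gene. In the second batch the OB bars of the Id genes (1169, 2345 and 1966) stand above those of every other identity shown.

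OB cells of unwounded and wounded skin had different Id means, and in the second batch only Id1 differed in direction between the lineages. In lin- OB cells of the second batch the mean Id1 level was 3231 in 11 unwounded cells, 2246 in 22 cells of day 6 and 290.2 in 38 cells of days 9 and 11. Id2 went from 5145 to 1892 and 1914, and Id3 from 2754 to 2469 and 673.1. All 11 unwounded cells had an Id2 read, against 25 of the 38 late cells. The first batch had 7 unwounded and 12 late cells, with Id1 at 712.7 and 131.2, Id2 at 956.9 and 571.8, and Id3 at 476.9 and 623.3. In lin- OB cells the late means thus lay below the unwounded ones in both batches for Id1 and Id2 and in the second batch for Id3. In lin+ OB cells of the second batch (5 unwounded, 15 of day 6 and 6 late) Id1 had the other order, at 6.67, 879.7 and 690.7, while Id2 was at 3351, 1683 and 2422 and Id3 at 5722, 2158 and 3250. These cells came from 1 unwounded mouse set per batch, and no test was made. The 5 Dct-high cells were all lin-, none of them in an unwounded set, and their part in these OB means was not tested.

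To ask whether progeny of Gata6-expressing cells differ from their neighbours in BMP target expression, lin+ and lin- cells of the same mouse set were compared. The Id genes were lower in lin+ cells of wounds. Id1, Id2 and Id3 were each lower in 5 of 5 wound mouse sets, a pattern found in 5.06% of the 10617 genes tested, and Id2 and Id3 were lower in 7 of 7 mouse sets with unwounded skin included (1.71% of genes). Even so, none of the 8 members passed the test of level across all genes.

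For Id1, lin- wound sets were at 669.8 (day 6), 290.8 and 257.6 (day 9, replicates 1 and 2), and 638.2 and 390.3 (day 11). The lin+ sets of the same mice were at 407.1, 195.3, 112.6, 288.5 and 112.6. With days mixed, the lineages did not overlap in the first batch and did in the second, and lin+ was the lower within every wound mouse set. The mean difference in log2 level was -1.08 ± 0.29 (SE, limma with mouse set as block, unadjusted p = 0.00519, adjusted p = 0.424), or 2.12-fold lower.

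Id2 was at 643.2, 118.6, 615.6, 200.9 and 1517 in the lin- wound sets in that order. In lin+ cells it was at 457.1, 35.6, 325.4, 115.2 and 271. The lin+ value was the lower of each pair, by a log2 difference of -1.28 ± 0.31 (SE; limma, unadjusted p = 0.00288, adjusted p = 0.351). In unwounded skin the lin- sets were at 245.1 and 1204 and the lin+ sets at 62.4 and 648.6, a log2 difference of -1.42 ± 0.49 (adjusted p = 0.319, limma). OB cells held 59.9 to 95.3% of the Id2 of the lin- sets. Without OB cells the difference was -0.73 in wounds and turned to 0.64 in unwounded skin. In unwounded IFE-B cells alone it was -3.19 ± 1.48 (log2, SE, adjusted p = 0.469, limma). The replicates there were far apart, at -6.95 and 0.56, so the direction in unwounded skin depended on the cells included. Keratin-low cells gave 46.6% of the Id2 of the lin- set of day 11, replicate 2, and without all such cells the wound difference was -1.07. Of the 5 Dct-high cells, 4 had Id2 and Id3 reads and none an Id1 or Sostdc1 read.

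Id3 was at 838.7, 872.9, 587.7, 1089 and 813.2 in lin- wound sets. The matched lin+ sets were at 679.9, 494.4, 356.1, 473.3 and 573.5. Within each batch, every lin+ wound set was below every lin- wound set apart from the lin+ set of day 6, and the mean log2 difference was -0.71 ± 0.40 (SE; adjusted p = 0.955, limma). In unwounded skin lin- sets were at 383.9 and 1001 and lin+ sets at 38.5 and 992.7, so that the log2 differences of the replicates, -3.29 and -0.01, were far apart. Without replicate 2 of day 0, which leaves 1 unwounded pair, Id3 passed the threshold there (-3.29, adjusted p = 0.0287, limma). Without OB cells the wound differences were -1.06 for Id1 and -1.01 for Id3. A single cell held 11.2 to 62.4% of the Id1 or Id3 sum of a lin- set and 13.7 to 77.2% in lin+ sets.

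**Figure D2:**
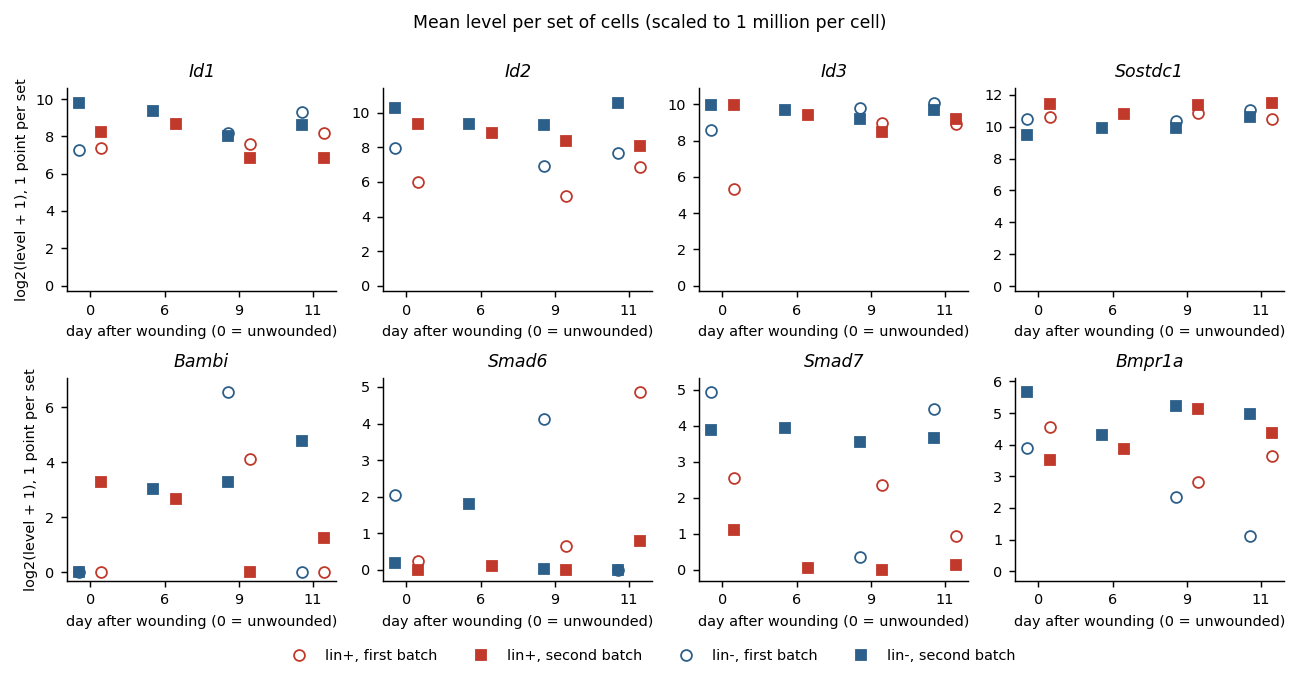
Level per set as log2(level + 1) for the 8 members against day after wounding, lin- in blue and lin+ in red, open circles for the first batch and filled squares for the second. Id2 and Id3 lie lower in red than in blue within each mouse set, and Bambi, Smad6 and Smad7 include sets at or near 0.

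Across the 8 members, 0 passed in lin+ against lin- wounds by limma, where 0.0942% of genes did (10 of 10617), and 3 (Id1, Id2 and Smad7) had an unadjusted p under 0.05, against 6.02% of all genes. In unwounded skin 0 passed (0.104% of genes) and 2 (Id2 and Id3) had an unadjusted p under 0.05 (12.15% of genes). edgeR on recovered reads also called 0 members in both. In IFE-B cells alone, an identity that also held 22 of the keratin-low cells and 2 of the 5 Dct-high cells, 0 of the 6 members with enough signal passed in wounds (0% of 10300 genes), and 1, Id1, had an unadjusted p under 0.05 (4.74% of genes). There Id1 was -1.20 ± 0.41 (log2, SE; adjusted p = 0.894, limma) and lower in 4 of 5 wound mouse sets, as were Id2 and Id3 (lower in at least 4 of 5: 19.2% of genes). The exceptions were day 6 for Id1 and Id3 and replicate 1 of day 9 for Id2.

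**Figure D3:**
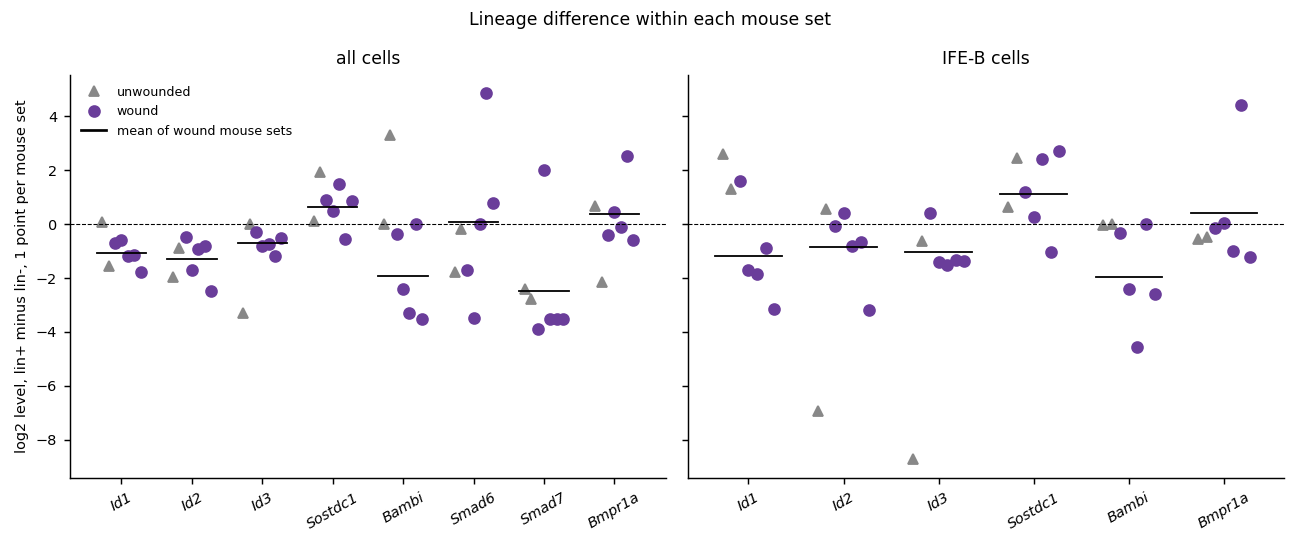
Difference in log2 level, lin+ minus lin-, within each mouse set for all cells (left, 8 members) and IFE-B cells (right, the 6 members tested there); triangles are unwounded skin, circles wounds, and the line is the mean of the 5 wound mouse sets. With all cells every wound circle of Id1, Id2 and Id3 is below 0, and in IFE-B cells 1 circle of each is above 0.

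Sostdc1 had the opposite order. Its level was 945.8, 1316, 946, 2094 and 1583 in the lin- wound sets and 1760, 1858, 2634, 1423 and 2886 in lin+ (day 6, then replicates 1 and 2 of days 9 and 11). It was higher in lin+ in 4 of 5 wound mouse sets (higher in at least 4 of 5: 19.9% of genes) and in 6 of 7 overall (higher in at least 6 of 7: 8.21% of genes), the exception being replicate 1 of day 11. The log2 difference was 0.64 ± 0.30 (SE) in wounds and 1.03 ± 0.48 in unwounded skin (limma, adjusted p = 0.875 and 0.429), where lin- sets were at 1415 and 720.3 and lin+ sets at 1547 and 2766.

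The share of cells with a Sostdc1 read was also higher in lin+. Among IFE-B cells, reads were found in 16 of 23 lin+ against 11 of 36 lin- cells of unwounded replicate 1, and in 20 of 21 against 8 of 31 of replicate 2. Day 6 gave 36 of 44 and 20 of 57, and day 9 gave 23 of 29 and 10 of 21 (replicate 1) and 16 of 17 and 10 of 17 (replicate 2). Day 11 gave 13 of 18 and 12 of 15, then 22 of 24 and 11 of 20. Only replicate 1 of day 11 had the lower share in lin+. The mean share was 83.4% in lin+ and 47.6% in lin-, a difference of 35.9 ± 23.0 percentage points (SD, n = 7 mouse sets; two-sided exact sign-flip permutation p = 0.03125, the smallest possible being 0.01562). Of all genes, 7.22% reached an unadjusted p under 0.05 by this test in IFE-B cells, and after adjustment over all genes none could pass. With all cells the shares were 76.5% and 53.4%, a difference of 23.1 ± 17.3 points (n = 7, exact permutation p = 0.03125; 8.7% of genes under 0.05). After thinning every cell to 500000 reads, which left out 22 cells, lin+ was higher in 7 of 7 mouse sets in both cell groups (mean difference 38.3 ± 18.6 points in IFE-B and 23.5 ± 15.5 in all cells). The test was chosen after the shares had been seen, and it was run for each of the 8 members in 2 cell groups, both before and after thinning. Within lin- cells the share was 29.8 and 29.2% in unwounded skin, 39.8% at day 6, and 57.1, 75.0, 76.9 and 66.0% at days 9 and 11. Genes detected per cell were also higher in those late sets, at medians of 1943.5 to 3228 against 1795 and 1900.5, and their part in the shares was not tested. After thinning to equal reads the lin- shares were 27.3 and 27.1% in unwounded skin, 41.2% at day 6, and 55.6, 74.4, 69.2 and 66.7% at days 9 and 11.

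**Figure D4:**
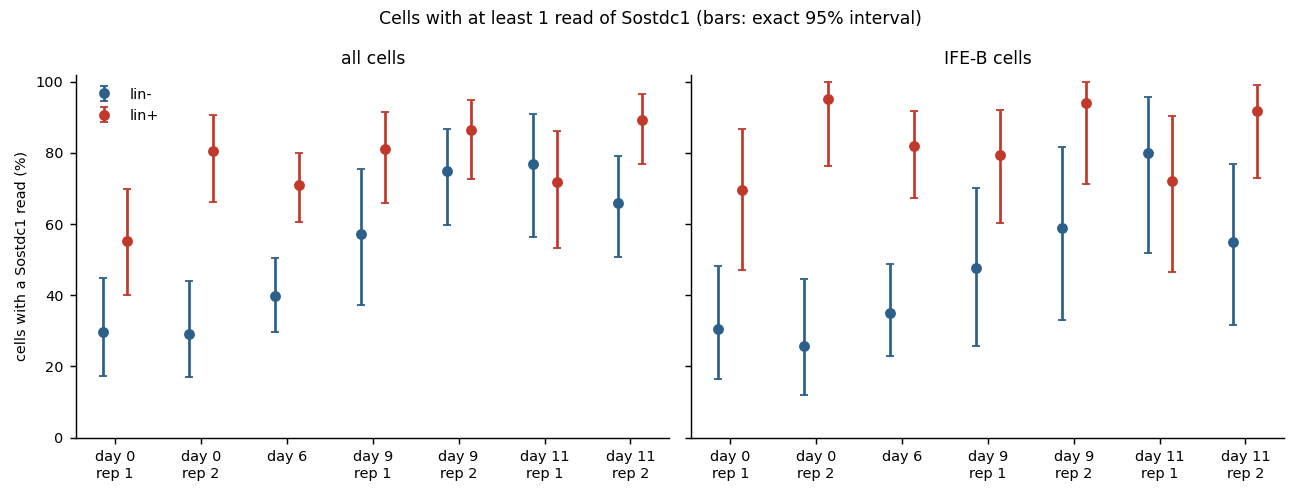
Percentage of cells with at least 1 Sostdc1 read by mouse set, all cells on the left and IFE-B cells on the right, lin- in blue and lin+ in red; bars are exact 95% binomial intervals, which cover counting error only. In IFE-B cells lin+ is at 69.6 to 95.2% and lin- at 25.8 to 80.0%, with day 11 replicate 1 the set where the order is turned.

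The share of cells with a read gave weaker differences for the Id genes. Over all cells and 7 mouse sets the mean share was 23.9% in lin+ and 31.0% in lin- for Id1, 33.4 and 36.8% for Id2, and 36.4 and 43.8% for Id3 (differences of -7.14 ± 9.30, -3.35 ± 8.69 and -7.40 ± 10.3 points, SD; exact permutation p = 0.1562, 0.4062 and 0.125). Each difference was smaller than its SD between mouse sets.

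Of the inhibitors, Smad7 was lower in lin+ in 6 of 7 mouse sets. The lin- levels of Smad7 were 29.6 and 13.7 in unwounded skin and 14.3, 0.271, 10.7, 21.1 and 11.7 in wounds. The lin+ levels were 4.83, 1.16, 0.0323, 4.14, 0.00626, 0.925 and 0.102. Replicate 1 of day 9 was the exception for Smad7 (lower in at least 6 of 7: 9.49% of genes), with a log2 difference in wounds of -2.49 ± 0.94 (SE; unadjusted p = 0.0267, adjusted p = 0.695, limma). Its reads came from 2 to 9 cells of a set, and OB cells held 45.0 to 100% of its level in 6 of the 7 lin- sets. Smad7 was read in 7.25% of lin+ and 13.9% of lin- cells (mean of 7 mouse sets, difference -6.61 ± 5.56 points, exact permutation p = 0.04688; after thinning p = 0.1094). That test took the 7 mouse sets as independent, though the unwounded ones came from mice of days 9 and 11. Bambi was at 0.0158 and 0.0034 in unwounded lin- sets and at 7.26, 92.6, 8.81, 0 and 26.2 in lin- wounds. In lin+ it was at 0.00955 and 8.85, then 5.38, 16.4, 0, 0 and 1.4. Bambi was lower in lin+ in 4 of 5 wound mouse sets (lower in at least 4 of 5: 22.5% of genes) and at 0 in both lineages of the fifth, by a log2 difference of -1.92 ± 0.90 (SE, adjusted p = 0.866, limma). It rested on 0 to 9 cells of a set. The lin- set of replicate 1 of day 9, with the highest Bambi level, also held the endothelial markers Pecam1 (60.1), Cdh5 (25.8) and Emcn (24.2), and their part in this value was not tested. Smad6 was between 0 and 28.1 and had reads in 0 to 5 cells of a set, too few to order the lineages. Bmpr1a was between 1.18 and 49.8 in lin- and 6.08 and 34.2 in lin+ sets, with a log2 difference in wounds of 0.37 ± 0.72 (SE, adjusted p = 0.9995, limma), higher in lin+ in 2 of 5.

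The second question was whether wounding altered these genes. With all cells, 0 of 8 members passed in late wounds (days 9 and 11) against unwounded skin, in lin+ (0.0942% of genes) or lin- cells (0.188%), by limma. At day 6, 0 passed in lin+ (0% of genes) and in lin- (0.0377%). Late wounds against day 6 gave 0 in lin+ (0.00942%) and in lin- (0.0377%), and the lineage difference of the late effect gave 0 (0.0188%). No member had an unadjusted p under 0.05 in these 7 comparisons, where 2.33 to 12.8% of genes did, and edgeR called 0 members in each.

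Within batches, Id1 and Id3 were higher in late wounds than in unwounded skin in the first and lower in the second. In lin+ cells the late log2 difference of Id1 was 0.53 in the first batch and -1.42 in the second, and that of Id3 was 3.62 and -1.13. In lin- cells Id1 gave 1.48 and -1.50 and Id3 1.34 and -0.53. Id2 gave 0.04 and -1.12 in the lin+ lineage, and in the lin- lineage its values were -0.66 and -0.32. Each batch held 1 unwounded mouse set, and for Id3 in lin+ cells the choice between them set the outcome. Without replicate 2 of day 0 its late difference was 3.72 and passed (adjusted p = 0.00484, limma), and without replicate 1 of day 0 it was -1.23 (adjusted p = 0.321). In lin- cells Bambi had late differences of 3.25 and 4.03 in the batches (log2, fitted 3.64 ± 1.70, SE, adjusted p = 0.389, limma). Other members with 1 direction in both batches of lin- cells besides Id2 were Sostdc1 (0.23 and 0.76), Smad7 (-2.53 and -0.27) and Bmpr1a (-2.15 and -0.56).

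In IFE-B cells Id1 levels ran in opposite directions in the lineages. In lin- IFE-B cells it was at 57.2 and 197.8 in unwounded skin and 83.2 on day 6. It was then at 375.1 and 318.4 (day 9) and 827 and 671.7 (day 11). In lin+ IFE-B cells it was at 355.9 and 487.3, then 252.7, 114.4 and 88.0, and 441.3 and 75.7. Within its batch, each of the 4 late lin- sets was above the unwounded lin- set, and 3 of 4 late lin+ sets were below the unwounded lin+ set. The reads came from few cells in unwounded skin, 1 of 36 and 4 of 31 lin- cells and 3 of 23 and 7 of 21 lin+ cells. They came from 12 of 21, 5 of 17, 6 of 15 and 13 of 20 late lin- cells and from 7 of 29, 4 of 17, 8 of 18 and 6 of 24 late lin+ cells, so in the first batch the lin+ share was larger in late wounds while the level was lower on average. Median genes per lin- IFE-B cell were 1842 and 2091 in unwounded skin and 2855 and 3439 in late wounds (first and second batch). In lin+ IFE-B cells they were 1756 and 2585, then 3044 and 3790. Their part in the Id1 values was not tested, and the share of all genes with this pattern of sets was not computed. The log2 change from unwounded to late wounds was 2.24 ± 0.70 in lin- and -1.61 ± 0.70 in lin+ (SE; limma, unadjusted p = 0.00748 and 0.0401, adjusted p = 0.363 and 0.389). Within batches it was 3.26 and 1.22 in lin- and -0.66 and -2.56 in lin+, so each direction was found in both. With the mean over cells of log2 values the lin+ change was 0.11. The difference between these changes, a comparison added after the data were seen, was -3.85 ± 0.99 (SE; unadjusted p = 0.00207, adjusted p = 0.426, limma), and 0 of 6 members passed it. In unwounded IFE-B cells Id1 was higher in lin+ by 1.96 ± 0.65 (log2, SE; adjusted p = 0.331), whereas with all cells it was -0.74 ± 0.46 (adjusted p = 0.567, limma) and without OB cells 1.17.

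**Figure D5:**
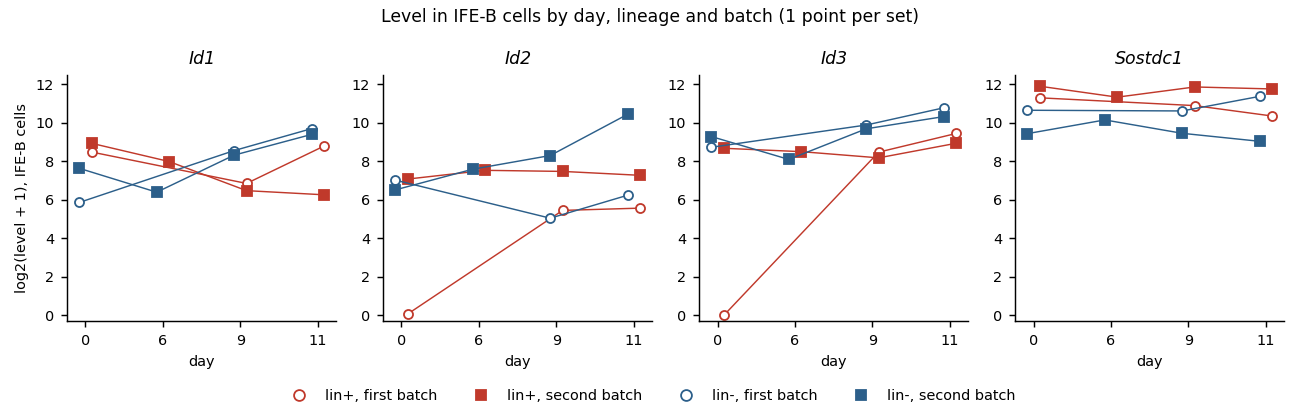
Level in IFE-B cells as log2(level + 1) against day after wounding for Id1, Id2, Id3 and Sostdc1, lin- in blue and lin+ in red, open circles for the first batch and filled squares for the second, with lines joining sets of a batch and lineage. Id1 runs upward in blue from 57.2 and 197.8 to 827 and 671.7, and Id3 in unwounded lin+ cells of the first batch sits at 0.

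Of the 6 members tested in IFE-B cells, 0 passed in late wounds of lin+ (0.126% of genes) or lin- cells (0.0971%). In lin+, 3 had an unadjusted p under 0.05 (Id1, Id2 and Id3; 12.0% of genes), and in lin- 2 (Id1 and Bambi; 9.83% of genes). Id3 in lin+ IFE-B cells was at 0 and 407.5 in unwounded skin, 360.9 at day 6, and 354.5, 288.6, 694.7 and 487.8 at days 9 and 11. The 0 was the set of replicate 1, with no Id3 read in any of 23 cells, which allows a share of up to 13.0%. The fitted late change of 4.42 ± 1.47 (log2, SE; adjusted p = 0.261, limma) rested on that set: the difference was 8.96 in its batch and -0.12 in the other. It was 8.94 without replicate 2 of day 0 (adjusted p = 0.000272, limma) and -0.095 without replicate 1 (adjusted p = 0.947). Id2 in the same set was at 0.0538, from 2 cells, and its late change of 2.87 ± 1.14 (adjusted p = 0.342) was 5.43 in that batch and 0.30 in the other, and 4.97 without replicate 2 of day 0 (adjusted p = 0.0181, limma). Bambi in lin- IFE-B cells was at 0.0216 and 0 in unwounded skin and at 122.6, 22.5, 0 and 20.9 in late wounds, a log2 change of 3.97 ± 1.65 (adjusted p = 0.482, limma).

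The wider pathway was described from a list of 70 genes, of which 66 were measured in both batches and 47 had enough signal for the test. None passed in any of the 12 comparisons by limma. In lin+ against lin- wounds 10 of 47 had an unadjusted p under 0.05 (6.02% of all genes did), all lower in lin+. These 10 include the members Id1, Id2 and Smad7 given above. The median log2 difference of the list was -0.34 against -0.01 over all genes. In IFE-B cells 7 of 44, Id1 among them, had an unadjusted p under 0.05 (4.74% of genes), all lower in lin+ (median -0.21 against 0.01). In unwounded skin 10 of 47, Id2 and Id3 among them, did (12.15% of genes), 9 lower and 1 higher in lin+. In late wounds against unwounded skin the counts were 5 of 47 in lin+ (1 higher; 10.1% of all genes) and 6 of 47 in lin- (4 higher; 12.8% of all genes), close to the shares over all genes.

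The 4 with the largest differences in wounds, named after their values were seen, were Fstl1, Dlx3, Msx1 and Msx2. Fstl1 encodes a secreted follistatin-like protein that binds BMPs, and Dlx3, Msx1 and Msx2 encode homeobox factors that BMP induces in ectoderm. Fstl1 was between 20.9 and 124.5 in all lin- sets and between 0.00896 and 10.7 in all lin+ sets. The share of all genes with such a gap was not computed. It was lower in lin+ in 7 of 7 mouse sets (1.71% of genes), and Fstl1 was picked for its difference. Its log2 difference in wounds was -4.54 ± 0.79 (SE, adjusted p = 0.118, limma). Dlx3 was at 8.42, 77.0, 99.3, 13.4 and 59.3 in lin- wounds and at 0.00214, 0, 7.14, 0.0907 and 3.38 in lin+, a log2 difference of -4.13 ± 0.77 (adjusted p = 0.153, limma). Msx1 and Msx2 differed by -3.11 ± 0.77 and -3.03 ± 0.79 (adjusted p = 0.362 and 0.395, limma). In IFE-B cells these 4 genes gave -3.95, -4.21, -3.40 and -3.34. By level, per length in the second batch, the highest of each role were Bmp7 among ligands (mean of sets 38.3), Fst (217.1) after Sostdc1 among secreted antagonists, Rgmb (27.5) and Bmpr1a (26.7) among receptors, Smad1 (36.0) among Smads, and Skil (98.3) among inhibitors. Among the E proteins that Id proteins bind, Tcf12 (40.6) and Tcf3 (35.2) were the highest.

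Over the 14 sets, with the mean of each batch subtracted, the Id genes correlated with each other at Pearson r = 0.59 (Id1 and Id2), 0.54 (Id1 and Id3) and 0.43 (Id2 and Id3). Sostdc1 stood at -0.58 with Id1, -0.44 with Id2 and -0.08 with Id3, and Smad7 at 0.64 with Id2. The genes most like each member, out of all tested, were Plscr4, Smoc2 and Iffo2 for Id1 (r = 0.86, 0.84 and 0.84), and Nedd4, Auts2 and a gene listed by number only for Id2 (0.82 each). For Id3 they were Mrpl37 (0.96), Nars (0.94) and Tmem192 (0.94), and for Sostdc1 Egr2 (0.90), Aqp9 (0.90) and Ephx2 (0.88). For Bambi they were Tmsb10 (0.93), Wdr4 (0.88) and Fam187b (0.84), for Smad6 Khnyn (0.88), Col6a1 (0.87) and Sparcl1 (0.85), for Smad7 Zfyve21 (0.88), Krt8 (0.86) and Arhgap29 (0.83), and for Bmpr1a Faf1 (0.91), Smchd1 (0.87) and Cdyl (0.87). With 14 points that share libraries and many genes to choose from, these are descriptions.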

How the data were processed

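Single epidermal cells were profiled by Smart-seq2. The authors trimmed reads with Trimmomatic 0.27, aligned them with STAR 2.2, counted with featureCounts (tools as listed in the submitters' processing notes; build mm10, GRCm38) and analysed cells with Seurat 3.2.2. The joint matrix they deposited holds read counts per gene for the first batch and RPKM (reads per kilobase of gene and 1000000 reads) for the second. It came with an annotation of each cell's identity, time and lineage. RPKM was also deposited for first-batch cells and served here to derive the gene lengths used to recover reads. Another 1048 columns of per-sample values in the deposited tables were not used. In the second batch whole reads were recovered from RPKM (99.968% of values whole within 0.02, below 200 reads); they served depth, thinning and edgeR only.

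Each cell was scaled to 1000000, averaged over the cells of a set, sets of a batch scaled to each other by median ratios, and tested as log2(level + 1) for genes reaching 10 in at least 2 sets (10617 genes, 10300 in IFE-B cells with at least 5 cells a set) with limma 3.58.1 (R 4.3.3), Benjamini-Hochberg adjustment over all genes tested, threshold 0.05. A fold change on this scale understates the change of low genes. Day comparisons had batch as covariate (5 residual degrees of freedom) and lineage comparisons the mouse set as block (3). The labels give the same mouse set for lin+ and lin- cells; the deviations of paired sets correlated at -0.216 (day 0), -0.00994 (day 9) and -0.102 (day 11). edgeR 4.0.16 was an alternative. Both were tested on simulated data with known changes. Unwounded skin came from the mice of days 9 and 11, with no label saying which, so unwounded and wounded sets were treated as separate in every test. Sign-flip p-values over the mouse sets therefore overstate the replication. Day 6 pooled 3 mice per replicate. Cells of a set are not replicates. Intervals are exact (Clopper-Pearson) and cover counting error only; a count of 0 allows 3 counts. Marker lists, members and pathway genes were chosen with earlier results of these data known. Named were all members, the highest of each pathway role, the 3 genes most like each member and, under a rule for pathway genes past the threshold that took in none, the 4 with the largest wound differences, chosen after their values were seen. Samples without an annotated cell, 6 blanks included, were left out.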

Additional observations from a re-analysis of the deposited data

Results flagged for a closer look

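Differences between lineages within single mouse sets were examined in 14 groups of 5 wound mouse sets (8 members with all cells, 6 in IFE-B cells), where chance alone would single out about 1 in 20, and 3 stood apart from the others of their group by Dixon's criterion. Smad7 with all cells was higher in lin+ by 2.02 (log2) in replicate 1 of day 9, where the other wound mouse sets ran from -3.89 to -3.52; Smad7 was read there in 4 lin- and 3 lin+ cells. Id3 in IFE-B cells was higher in lin+ by 0.40 at day 6, against -1.51 to -1.33 in the other 4. Bmpr1a in IFE-B cells was higher in lin+ by 4.40 in replicate 1 of day 11, against -1.24 to 0.03 elsewhere, in the lin- set of 15 cells where it had no read.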

How the results depend on the processing

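No member passed the threshold in any of the 12 comparisons, and this held under 182 of 191 settings and comparisons. With the mean over cells of log2 values in place of the log2 of the mean, 1 member passed in lin+ late wounds (Id3, 2.42, adjusted p = 0.0355), 3 in lin- late wounds, 1 in late IFE-B lin+ cells (Id3, 4.08), 3 in late IFE-B lin- cells (Id1 among them, 3.67) and 1 in IFE-B lin+ against lin- wounds (Sostdc1, 3.93, adjusted p = 0.0275); this setting called up to 2006 genes against 20. Leaving out mouse sets in turn gave 0 to 1 members in lin+ late wounds, in lin+ day 6 and in unwounded lineages, and 0 to 2 in late IFE-B lin+ cells, each time without replicate 2 of day 0, which called up to 487 genes; Id3 was then 3.72 in lin+ late wounds, and in IFE-B cells Id3 was 8.94 and Id2 4.97. Directions turned without replicate 1 of day 0 for Id3 in lin+ late wounds (-1.23) and late IFE-B lin+ cells (-0.095) and for the lineage difference of the late Id1 change (-1.25 to 0.39 without single mouse sets, and 0.098 by edgeR, against -0.44). They also turned for Id1 in late IFE-B lin+ cells with the mean of log2 values (0.11), for Id1 in unwounded lineages when mouse sets were left out (-1.56 to 0.088), without OB cells (1.17) and in IFE-B cells (1.96), and for Id2 there without OB cells (0.64). Thinned shares turned for Smad6 (0.0674 against -0.879 points) and for Id2 in IFE-B cells (-1.16 against 1.27), all within their spread. The cause was not tested. Without the replicate block, with batch as covariate, Id1 in wounds was -1.08 and no member passed; the blocked and unblocked fits gave the same calls for members. Without filtering low values up to 348 genes passed, with edgeR up to 3, and no member in either. Settings without OB cells, without keratin-low cells and in IFE-B cells only were added after the data were seen. Sets of 15 to 57 IFE-B cells, with Id reads in few of them, limit the precision.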
